A study of Mus musculus with 12 samples.

Results

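A set of 10 genes of the TNF and NF-κB response was followed in the mouse macrophage-like line J774A.1: *Tnf*, the chemokine genes *Ccl2*, *Ccl3*, *Ccl4*, *Ccl6*, *Ccl9* and *Cxcl2*, the interleukin-1 receptor antagonist gene *Il1rn*, and the NF-κB feedback genes *Nfkbia* and *Tnfaip3*. They were taken by gene symbol from a table of 28977 gene IDs. All 10 had 1 row each, and all 10 were among the 12026 genes with at least 1 FPKM in at least 3 of the 12 libraries. FPKM scales the fragments assigned to a gene by its exon length and by the library's total, so that levels can be compared between genes and libraries. The cells were exposed for 1 h to HOCl (hypochlorous acid, the oxidant that myeloperoxidase makes) at 20 µM or 100 µM in HBSS, a buffered salt solution. The controls were HBSS alone, which is the vehicle, and ordinary cell media. All groups then spent 24 h in full medium before collection, and each had 3 libraries. The study calls the HOCl doses sublethal and lethal without tying either word to a number. J774A.1 is a single cultured line, and no label ties the 3 libraries of a group to separate cultures, so p-values here measure the spread between these libraries, which may be technical.

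TNF is a cytokine that macrophages release within hours of activation. Its receptors, like the Toll-like receptors, activate the kinase complex that degrades IκBα, the protein made from *Nfkbia*, and so free NF-κB to enter the nucleus. NF-κB induces chemokine genes, which recruit monocytes and neutrophils, and also its own brakes, IκBα and the ubiquitin-editing enzyme A20 (*Tnfaip3*). Messages of this group are often short-lived because AU-rich elements in their 3′ UTRs are bound by decay factors such as tristetraprolin (*Zfp36*).

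The promoter sequences of 4 members are shown because they hold a κB-type motif, the kind of site that NF-κB binds. The motif searched was GGGNNNTTCC on both strands, in the 250 bases before each start in RefSeq's table (GRCm38.p6), which held 8 of the 10 members. It was found before at least 1 start in 5 of these 8 genes, and in 5.31% of all 27025 genes of the table. By window it was found in 6 of the 11 windows of these members, and in 4.65% of all 32851. The last 120 bases before the start are printed 5′ to 3′ on the gene's strand, with matches in capitals.
Cxcl2, chr5:90903779-90903898, plus strand: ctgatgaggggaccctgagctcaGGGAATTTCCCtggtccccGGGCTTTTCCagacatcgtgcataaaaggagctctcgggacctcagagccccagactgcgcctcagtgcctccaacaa
Nfkbia, chr12:55492648-55492767, minus strand: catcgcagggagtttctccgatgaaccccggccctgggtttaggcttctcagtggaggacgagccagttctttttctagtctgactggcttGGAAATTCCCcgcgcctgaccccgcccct
Tnfaip3, the first of 2 starts, chr10:19015411-19015530, minus strand: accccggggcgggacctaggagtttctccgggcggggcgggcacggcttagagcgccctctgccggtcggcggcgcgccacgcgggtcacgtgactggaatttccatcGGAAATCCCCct
Ccl9, chr11:83578637-83578756, minus strand: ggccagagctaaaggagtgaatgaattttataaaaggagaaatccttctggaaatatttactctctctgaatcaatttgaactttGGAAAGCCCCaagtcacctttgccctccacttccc

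*Cxcl2* held 3 matches, of which a pair overlap on opposite strands, at 97 to 87 bases before the start, and 1 lay at 78 to 69 bases before it. *Nfkbia* and *Ccl9* held 1 match each, at 29 to 20 and 35 to 26 bases before the start. *Tnfaip3* held 1 match before each of its 2 starts, and *Il1rn* 1 match before the third of its 3 starts. No match to these letters was found in the windows of *Tnf*, *Ccl3* and *Ccl6*, and this says only that these letters are not there.

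The 3′ UTRs differed among the members in the heptamer TATTTAT, the core of the AU-rich element. In the longest 3′ UTR that GENCODE M21 (GRCm38) gives each gene, 27.6% of 21020 genes held it. *Tnf* held 8 copies in 764 bases and *Cxcl2* 7 in 1494 bases, overlaps counted. As many copies were found in 0.167% and 0.216% of the UTRs within 10% of those lengths. *Nfkbia* and *Tnfaip3* held 2 copies each and *Ccl3* and *Ccl4* 1 each. *Ccl2*, *Ccl6*, *Ccl9* and *Il1rn* held none. A stretch of 30 bases with the heptamers in capitals shows the difference between a repeated and a single element.
Tnf, chr17:35199678-35199707, minus strand: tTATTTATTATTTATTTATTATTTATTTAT
Cxcl2, chr5:90905325-90905354, plus strand: ctTATTTATTTATctatgTATTTATTTATt
Ccl3, chr11:83648003-83648032, minus strand: tgtatttgtgacTATTTATtctgaaagact
Ccl4, chr11:83664541-83664570, plus strand: tattatttctatTATTTATgttttagttat
Nfkbia, chr12:55489608-55489637, minus strand: aggaccacgtttTATTTATtgtgcttttga

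The libraries were divided by 17683937 to 21408518 reads, as read back from the steps between low values. Cell media replicates 1 and 2 stood apart: Pearson's r on log2(FPKM + 1) over the kept genes was 0.988 between these replicates, 0.946 to 0.971 between either of them and any other library, and no lower than 0.974 among the remaining 10. Tests that these libraries enter are given with and without them where a call or direction changed. Genes with little exonic sequence also stood higher in the 100 µM libraries. The shortest genes have exon lengths up to 1949 bases (the lower quartile). Their median distance from the HBSS mean was 0.08 to 0.14 on the log2 scale in the 3 libraries. Among the longest, from 6236 bases (the upper quartile), it was -0.16 to -0.04. In cell media replicates 1 and 2 these medians were 0.11 and 0.27 for the shortest genes and -0.41 and -0.45 for the longest. Of the macrophage markers, 9 of 9 reached 1 FPKM in some library, with *Lyz2* at 2020 to 2892 and *Cd68* at 771 to 918. *Mrc1*, at 0.31 to 1.13, did not pass the filter, and the other 8 did. The summed level of the 9 markers, most of it *Lyz2*, was 3892 to 4419 FPKM at 100 µM and 3378 to 3695 in HBSS. Of the 6 neutrophil markers only *S100a8* reached 1 FPKM, and no listed marker of T cells, B cells, mast cells, dendritic cells, fibroblasts or epithelium did. In bulk RNA, a lower share of expressing cells and less message per cell cannot be told apart.

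The members covered a wide range of levels. In HBSS *Ccl2* stood at 454 ± 35.8 FPKM (SD, n = 3), *Ccl3* at 415 ± 39.9 and *Ccl9* at 407 ± 26.1, ranks 62, 78 and 83 among the 12026 kept genes, and these 3 overlapped. *Ccl4* followed at 289 ± 11.4, below all 3 in every HBSS library. *Cxcl2* at 179 ± 88.4 and *Tnf* at 134 ± 22.1 overlapped each other. *Nfkbia* stood at 25.6 ± 3.04 and *Ccl6* at 6.68 ± 0.67, while *Il1rn* at 2.94 ± 0.23 and *Tnfaip3* at 2.04 ± 0.13 ranked 8995 and 9944. These levels are per length. By reads the weakest member was *Tnfaip3*, with 185 to 326 reads per library, which gives a counting error of 7.35% at the fewest.

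**Figure D1:**
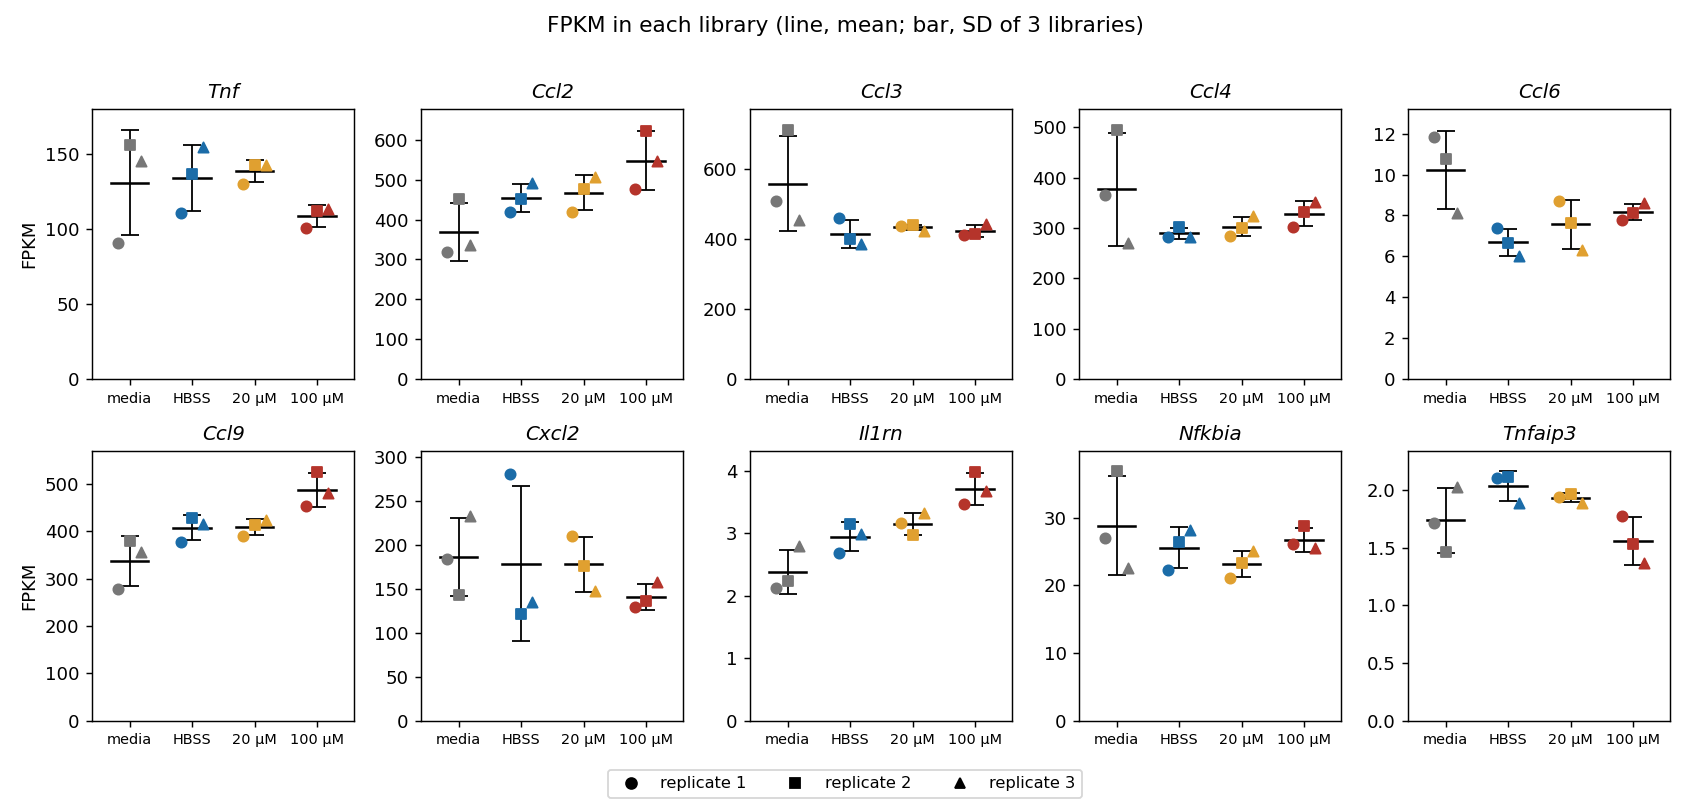
FPKM of each member (vertical axis, linear from 0, one scale per gene) in the 4 groups (horizontal axis); points are the 3 libraries of a group and bars the mean with its SD. At 100 µM all 3 points of *Ccl9*, *Il1rn* and *Ccl6* lie above those of HBSS and all 3 of *Tnfaip3* below them.

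Which of these genes still differed 24 h after the higher dose was asked by setting 100 µM HOCl against HBSS. None of the 10 genes passed limma's test at an adjusted p under 0.05, and 0.00% of all 12026 genes did. At an unadjusted p under 0.05 there were 2 members, *Il1rn* and *Tnfaip3*, against 7.76% of all genes. The 3 libraries of one group lay wholly above or below the 3 of the other in 4 members, with 34.1% of all genes doing so, a share near the members'. In single directions, *Ccl6*, *Ccl9* and *Il1rn* lay above (16.5% of all genes) and *Tnfaip3* below (17.6%). The median log2 difference was 0.12 over the members and -0.01 over all kept genes.

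*Tnf*, the cytokine gene among the members, read 111, 137 and 155 FPKM in HBSS and 101, 112 and 114 at 100 µM. The highest 100 µM library lay above the lowest HBSS library, so the groups overlapped. The mean at 100 µM was 0.81 times that of HBSS, a log2 difference of -0.29 (SE 0.19, 95% interval -0.70 to 0.12, limma adjusted p = 0.669).

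Of the monocyte-attracting chemokines, *Ccl2* (MCP-1) read 419.6, 452 and 491 FPKM in HBSS and 476, 622 and 546 at 100 µM. A single 100 µM library fell within the HBSS range. The log2 difference was 0.26 (SE 0.15, interval -0.06 to 0.59, adjusted p = 0.665). *Ccl9*, a CCR1 ligand made by rodent myeloid cells, read 378, 428 and 415 in HBSS and 454, 526 and 482 at 100 µM. Every 100 µM value exceeded every HBSS value, and the ratio of means was 1.20. Its log2 difference was 0.26 (SE 0.12, interval -0.01 to 0.52, adjusted p = 0.636). *Ccl6*, its neighbour on chromosome 11 and likewise a CCR1 ligand, read 7.36, 6.67 and 6.02 in HBSS and 7.79, 8.14 and 8.59 at 100 µM. These groups did not overlap either, with a log2 difference of 0.26 (SE 0.14, interval -0.04 to 0.56, adjusted p = 0.655).

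The genes *Ccl3* (MIP-1α) and *Ccl4* (MIP-1β), whose products attract monocytes and T cells, are adjacent on the same chromosome. *Ccl3* read 460.0, 400.3 and 384 FPKM in HBSS and 410.3, 415 and 443 at 100 µM. The 100 µM values all lay inside the HBSS range, with a log2 difference of 0.03 and an interval of -0.29 to 0.35. *Ccl4* read 283, 302 and 282 in HBSS and 301, 332 and 352 at 100 µM, and the groups overlapped by 1 library on each side. Its difference was 0.18 (SE 0.18, interval -0.21 to 0.57, adjusted p = 0.724).

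*Cxcl2* (MIP-2), the neutrophil chemokine, was the most uneven member. HBSS libraries read 281, 121 and 135 FPKM and 100 µM libraries 129, 136 and 158. HBSS replicate 1 was the highest of all 12 libraries, and the other HBSS libraries were the lowest or close to it. The log2 difference of -0.24 had an SE of 0.29 and an interval of -0.87 to 0.39. Without HBSS replicate 1 the difference was 0.13, so its direction rests on that library.

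The 3 inhibitors differed from one another. *Il1rn*, whose product blocks the interleukin-1 receptor, read 2.69, 3.15 and 2.99 FPKM in HBSS and 3.47, 3.98 and 3.68 at 100 µM. Every 100 µM library stood above HBSS, with a ratio of means of 1.26 and a log2 difference of 0.26 (SE 0.09, interval 0.05 to 0.46, adjusted p = 0.625). *Tnfaip3*, which encodes A20, read 2.11, 2.12 and 1.88 in HBSS and 1.77, 1.53 and 1.37 at 100 µM. Every 100 µM library stood below HBSS, with a ratio of means of 0.76 and a log2 difference of -0.25 (SE 0.10, interval -0.47 to -0.03, adjusted p = 0.627). *Nfkbia*, which encodes IκBα, read 22.2, 26.4 and 28.1 in HBSS and 26.1, 28.8 and 25.5 at 100 µM. These overlapped, and the difference was 0.07 (interval -0.28 to 0.41). Because 1 was added to each value, the log2 differences of *Il1rn* and *Tnfaip3* understate their ratios.

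**Figure D2:**
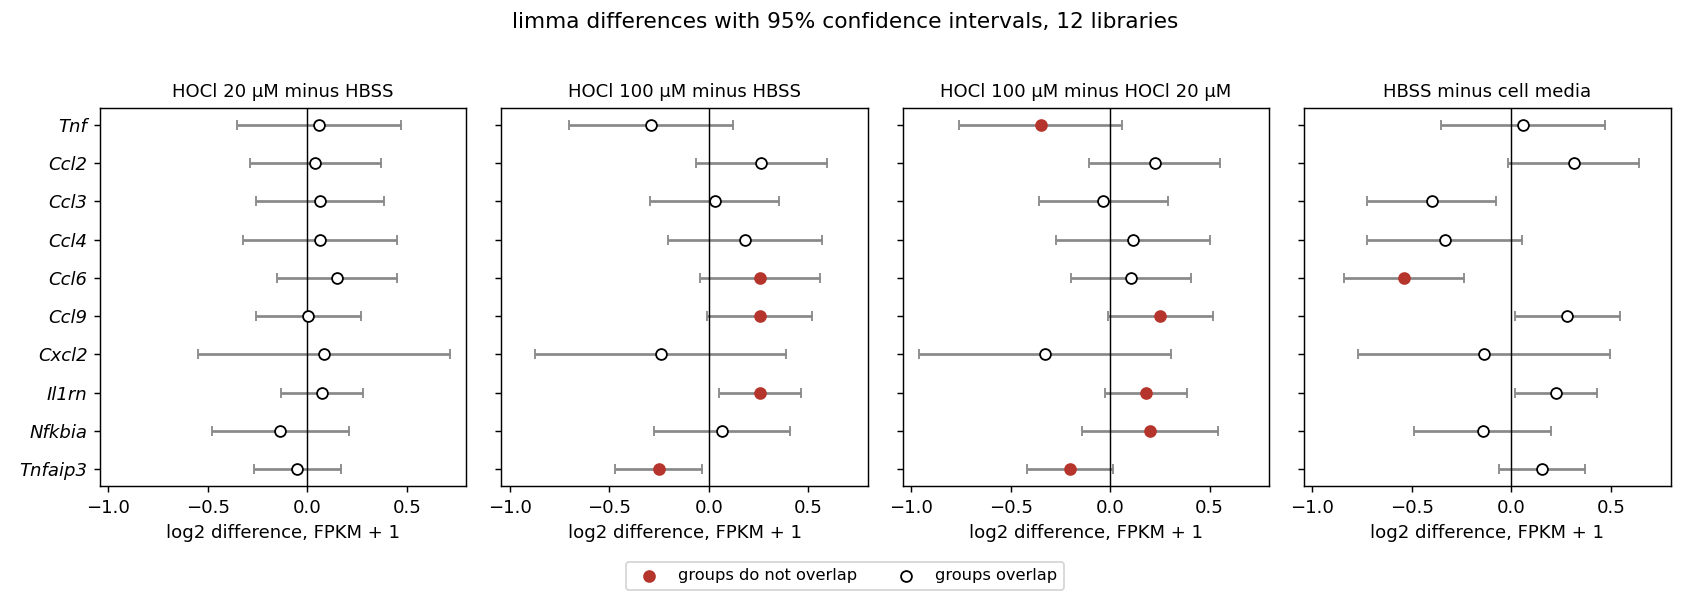
limma log2 differences of log2(FPKM + 1) (horizontal axis) for each member (vertical axis) in the 4 comparisons, with 95% intervals; filled points mark groups whose libraries do not overlap. At 100 µM against HBSS the intervals of *Il1rn* and *Tnfaip3* exclude 0, and every interval at 20 µM against HBSS includes it.

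Cell media replicates 1 and 2 entered this test only through the shared spread. Without them, 29 of the 12026 genes (0.241%) and 0 members passed at 100 µM against HBSS, and 7 members against 32.2% of genes had an unadjusted p under 0.05. The smallest adjusted p values among the members were then 0.071 for *Il1rn*, 0.072 for *Ccl9* and 0.085 for *Tnfaip3*, and that of *Tnf* was 0.119. With the replicate number added as a block in the same 10 libraries, 6 members passed, *Tnf*, *Ccl2*, *Ccl4*, *Ccl9*, *Il1rn* and *Tnfaip3*, at adjusted p of 0.015 to 0.043, beside 24.8% of all genes. Whether the numbers pair the libraries was not settled, as the closing section describes.

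Exon length moved with some of these differences. By the limits given above 6 members are among the shortest genes: *Ccl4* with 660 exonic bases, *Ccl3* with 766, *Ccl2* with 1138, *Nfkbia* with 1610, *Tnf* with 1639 and *Ccl6* with 1795. At 100 µM *Tnf* went the other way from the median of those genes, and *Ccl3* and *Nfkbia* were near 0. *Tnfaip3*, with 7226 bases, is among the longest. With a smooth trend on exon length taken out of each library, a choice made after the data were seen, the differences at 100 µM were 0.15 for *Ccl2*, -0.11 for *Ccl3*, 0.03 for *Ccl4*, -0.02 for *Nfkbia* and -0.16 for *Tnfaip3*. They were -0.37 for *Tnf*, 0.23 for *Ccl9*, 0.19 for *Ccl6* and 0.31 for *Il1rn*, so these 4 kept their direction and moved by less than 1.5 times. The part of length in the differences was not tested further.

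Set beside the 3′ UTRs printed above, the 4 members with no heptamer, *Ccl2*, *Ccl6*, *Ccl9* and *Il1rn*, had positive differences of 0.26 each at 100 µM. *Tnf* and *Cxcl2*, with the most copies, had the negative differences -0.29 and -0.24, and *Tnfaip3*, with 2, had -0.25. *Ccl3*, *Ccl4* and *Nfkbia*, with 1, 1 and 2 copies, had 0.03, 0.18 and 0.07. No test was made of this order, and without HBSS replicate 1 *Cxcl2* leaves it. None of these differences passed limma's test, and the intervals of *Ccl2*, *Ccl6*, *Ccl9*, *Tnf* and *Cxcl2* include 0. *Ccl2* and *Ccl6* are also among the shortest genes and *Tnfaip3* among the longest. With the length trend removed, as given above, the values of the 4 members with no heptamer were no longer alike.

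At 20 µM the question is whether the lower dose left any trace. Against HBSS 0 of the 10 members and 0.00% of all genes passed limma's test, and no member reached an unadjusted p under 0.05, as did 1.08% of all genes. No member's groups were free of overlap, against 7.69% of all genes. The differences ran from -0.14 for *Nfkbia* to 0.15 for *Ccl6*, with adjusted p of 1.00 throughout. The intervals bound what these libraries could miss: that of *Ccl9* ran from -0.26 to 0.27 and that of *Il1rn* from -0.13 to 0.28, whereas that of *Cxcl2* ran from -0.55 to 0.72. In FPKM, *Tnf* read 130.3, 143 and 143 at 20 µM, *Ccl9* 389.8, 412 and 423, and *Tnfaip3* 1.94, 1.96 and 1.89. All these values lie within the HBSS range.

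Between the doses, 0 members and 0.00% of genes passed, and 5 of 10 members did not overlap, against 28.3% of all genes. *Ccl9*, *Il1rn* and *Nfkbia* were higher in every 100 µM library than in every 20 µM library, by 0.25, 0.18 and 0.20 on the log2 scale, as were 12.7% of all genes. *Tnf* and *Tnfaip3* were lower in every one, as were 15.6% of all genes, with differences of -0.35 (SE 0.19) and -0.20 (SE 0.10). The limma adjusted p was 0.825 for each of these 5 genes. The 20 µM libraries of *Tnf* lay closer together than those of HBSS, with SDs of 7.19 and 22.1 FPKM. With the replicate block in the 10 libraries described above, *Tnf* and *Ccl9* passed (adjusted p = 0.028 for both), beside 17.4% of all genes. This comparison and that of 100 µM with HBSS share the 100 µM libraries.

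**Figure D3:**
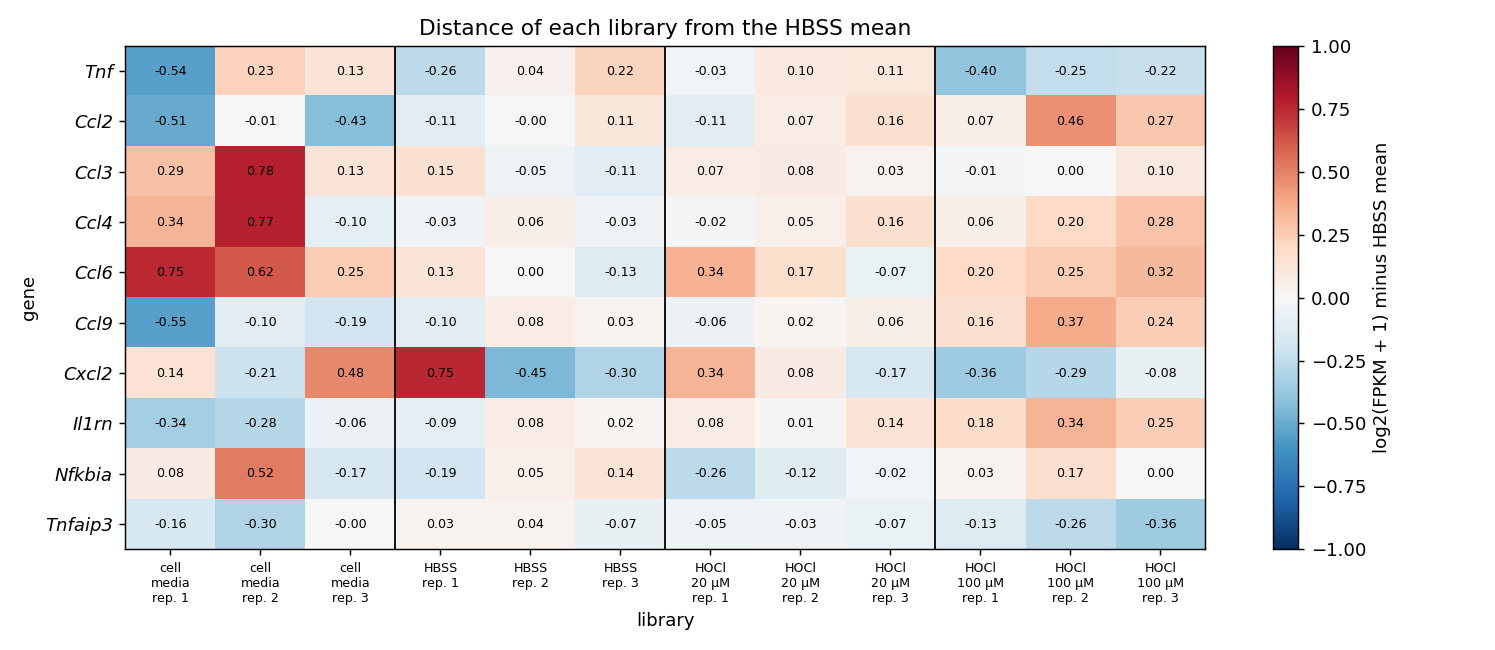
Distance of each library (columns, in group order) from the mean of the 3 HBSS libraries on the log2(FPKM + 1) scale for each member (rows), red above and blue below. The 100 µM columns are red in the rows of *Ccl2*, *Ccl4*, *Ccl6*, *Ccl9* and *Il1rn* and blue in those of *Tnf*, *Cxcl2* and *Tnfaip3*, and cell media replicate 2 reaches 0.78 in *Ccl3* and 0.77 in *Ccl4*.

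HBSS was compared with cell media to show what 1 h in the salt solution left by itself. No member passed limma's test, beside 0.0166% of all genes (2 genes). At an unadjusted p under 0.05 there were 4 members, *Ccl3*, *Ccl6*, *Ccl9* and *Il1rn*, a share equal to the 40.0% of all genes. *Ccl6* had the smallest p of the 10. It read 11.9, 10.7 and 8.14 FPKM in cell media, each above every HBSS library. Its log2 difference was -0.54 (SE 0.14, interval -0.84 to -0.24, adjusted p = 0.071), and it was the single member without overlap, against 21.6% of all genes.

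*Ccl3* read 507, 709.6 and 453 FPKM in cell media and *Ccl4* 366, 494 and 269. Replicate 2 was the highest in both genes and replicate 3 the lowest, inside the HBSS range for *Ccl3* and below it for *Ccl4*. The differences were -0.40 (SE 0.15, adjusted p = 0.084) and -0.34 (SE 0.18, adjusted p = 0.165). *Ccl2*, by contrast, read 319, 451 and 336 in cell media and *Ccl9* 278, 378 and 356. Both were lower there than in HBSS on average, with differences of 0.31 (adjusted p = 0.137) and 0.28 (adjusted p = 0.112). *Il1rn* read 2.12, 2.24 and 2.79, with a difference of 0.22 (adjusted p = 0.106). *Ccl2*, *Ccl3*, *Ccl4* and *Ccl6* are among the shortest genes, whose median stood higher in cell media replicates 1 and 2. The part of length in these differences was not tested further.

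These values turned on which cell media libraries were used. Over all kept genes, cell media replicates 1 and 2 were close to each other (r of 0.988). Among the members this varied: they read 507 and 709.6 FPKM for *Ccl3* and 319 and 451 for *Ccl2*, but 2.12 and 2.24 for *Il1rn*. Without cell media replicate 3, limma called 65.3% of all genes and 6 members. *Ccl3*, *Ccl4* and *Ccl6* were lower in HBSS by that test, with differences of -0.54, -0.55 and -0.68, and *Ccl9*, *Il1rn* and *Tnfaip3* higher, with 0.32, 0.31 and 0.23. With cell media replicate 3 alone, assumed to vary like the other groups, 0 members and 0.00% of all genes passed. The differences were then -0.13 for *Ccl3*, 0.10 for *Ccl4*, -0.25 for *Ccl6*, 0.43 for *Ccl2*, 0.19 for *Ccl9* and 0.06 for *Il1rn*, so *Ccl4* changed sign and *Ccl2* grew. *Tnf* read 90.7, 156 and 146 in cell media, and replicates 1 and 2 lay on opposite sides of the HBSS range.

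**Figure D4:**
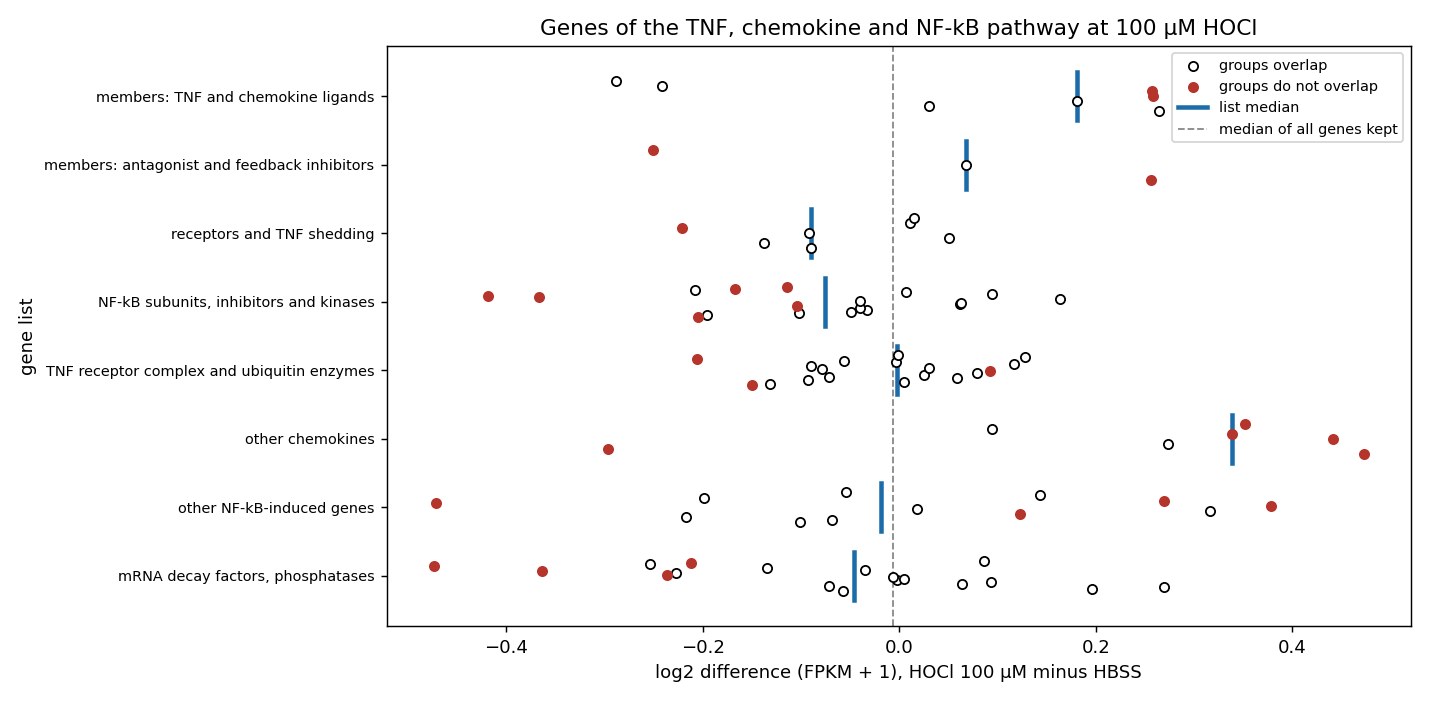
limma log2 differences at 100 µM against HBSS (horizontal axis) of the members and of the kept genes of 6 lists around them (rows); each point is a gene, and the bar is the list's median. The list of other chemokines has its median at 0.34, and the other 5 lists have medians between -0.09 and -0.002.

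The genes that surround the members were described from 6 lists. No gene of any list passed limma's test in any of the 4 comparisons, with all 12 libraries or without cell media replicates 1 and 2. Among receptors and the TNF-shedding machinery, 7 of 15 genes were kept, 3 with a positive and 4 with a negative difference at 100 µM against HBSS and a median of -0.09. The TNF receptor gene *Tnfrsf1b* read 66.3 ± 3.77 in HBSS and 66.9 ± 0.85 FPKM at 100 µM. *Adam17*, the gene of the protease that sheds TNF, read 48.1 ± 1.12 and 45.1 ± 2.41. *Rhbdf2*, which encodes the partner that carries that protease to the surface, read 24.2 ± 1.10 and 20.7 ± 1.33 (difference -0.22, adjusted p = 0.633). Its 3 libraries at 100 µM lay below all 3 of HBSS. The receptors for several of these ligands were low: *Ccr1* and *Cxcr2* were among 8 genes that missed the filter, none above 1.20 FPKM.

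All 18 genes of NF-κB subunits, inhibitors and kinases were kept, 5 with a positive and 13 with a negative difference at 100 µM and a median of -0.08. Without overlap, 6 were lower and 0 higher, against 17.6% and 16.5% of all genes. The lower ones, named after their values were seen, include *Nfkb1*, *Rel* and *Tab3*, with 12061, 7466 and 6639 exonic bases. These are among the longest genes, whose median stood lower in the 100 µM libraries. The rest, *Tab2*, *Nfkbiz* and *Bcl3*, have 6135, 5018 and 2475. The part of length in these counts was not tested. The NF-κB inhibitor gene *Nfkbib* (17.8 ± 0.12 and 18.6 ± 1.01) and the kinase genes *Ikbkb* (6.26 ± 0.17 and 5.76 ± 0.31) and *Map3k7* (10.9 ± 0.33 and 10.5 ± 0.19) overlapped. *Nfkbib*, *Ikbkb* and *Map3k7* were named by their smallest p, which was that of HBSS minus cell media. All 18 genes of the TNF receptor complex were kept too, with 8 positive and 10 negative differences and a median of -0.002. Here 1 was higher and 2 were lower without overlap. *Ripk1*, the kinase recruited to TNF receptor 1, read 6.31 ± 0.45 in HBSS and 6.47 ± 0.89 at 100 µM. *Rbck1*, of the linear ubiquitin ligase, read 32.9 ± 1.09 and 31.2 ± 1.33, and *Tnip2*, an A20-binding protein gene, 7.29 ± 0.64 and 6.79 ± 0.61. The groups overlapped for *Ripk1*, *Rbck1* and *Tnip2*.

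The other chemokine genes gave the largest median of the 6 lists at 100 µM, 0.34 over the 7 of 20 that were kept, with 6 positive and 1 negative difference, beside -0.01 over all kept genes. *Ccl7* (MCP-3), the next gene after *Ccl2* on chromosome 11, read 70.7, 60.5 and 64.0 FPKM in HBSS and 79.0, 99.9 and 87.9 at 100 µM. The groups did not overlap, with a log2 difference of 0.44 (SE 0.14, unadjusted p = 0.010, adjusted p = 0.602). *Ccl12* (MCP-5) read 33.1, 41.8 and 42.1 in HBSS and 44.6, 60.9 and 58.4 at 100 µM, a difference of 0.47 (SE 0.22, adjusted p = 0.636). *Pf4*, the platelet and macrophage CXC chemokine gene, read 162 ± 10.5 in HBSS and 207 ± 16.2 at 100 µM, and 318 and 356 in cell media replicates 1 and 2. These 3 genes have 801, 537 and 721 exonic bases. They too are among the short genes, whose median stood higher in the 100 µM libraries and in cell media replicates 1 and 2. The part of length in these values was not tested. Of the 7 kept genes, 4 were higher and 1 lower without overlap, against 16.5% and 17.6% of all genes. *Ccl7*, *Ccl12* and *Pf4* were among the higher. The other kept genes without overlap were *Cxcl10*, higher at 100 µM (difference 0.34), and *Ccl25*, lower (difference -0.30), both named after their values were seen. The other 13 chemokine genes of the list, *Cxcl1* and *Cxcl3* among them, did not pass the filter.

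Of other NF-κB-induced genes, 12 of 21 in the table were kept, with 6 positive and 6 negative differences and a median of -0.02. Of these, 3 were higher and 1 lower without overlap, against 16.5% and 17.6% of all genes. *Ier3*, an early-response gene, read 32.8 ± 3.48 in HBSS and 33.2 ± 2.75 FPKM at 100 µM. *Tnfsf9*, which encodes the ligand of the costimulatory receptor 4-1BB, read 37.8 ± 2.29 and 36.3 ± 2.34, and *Slfn2* 49.2 ± 3.94 and 54.5 ± 5.17. The 9 that missed the filter, with *Il1a*, *Il1b*, *Il6* and *Il10* among them, did not exceed 0.93 FPKM in any library. The interleukin-1 genes, whose products *Il1rn* opposes, were thus near the lower end of what was detected. Of the mRNA decay factors and phosphatases, 18 of 19 were kept, with 6 positive and 12 negative differences and a median of -0.05. In this list 0 were higher and 4 lower without overlap, against the same shares of all genes. The lower ones, named after their values were seen, were *Rc3h2*, *N4bp1*, *Zc3h12c* and *Zfp36l1*, with 19624, 12189, 6845 and 2990 exonic bases. All but *Zfp36l1* are among the longest genes, and the part of length was not tested. *Hnrnpd*, which encodes the AU-rich-element binding protein AUF1, read 25.5 ± 0.70 and 25.7 ± 1.84. The kinase phosphatase gene *Dusp6* read 16.6 ± 3.24 and 17.6 ± 1.26, and *Atf3*, a stress-induced repressor of cytokine genes, 112 ± 13.6 and 107 ± 5.49. *Zfp36*, named after its values were seen because its product binds the heptamer printed above, read 13.6 ± 1.07 in HBSS and 11.3 ± 1.98 at 100 µM (difference -0.25, adjusted p = 0.636), and the groups overlapped.

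The genes whose profiles were most like each member's were sought over the 10 libraries other than cell media replicates 1 and 2, by Pearson's r on log2(FPKM + 1), among 7315 or 7316 genes whose mean reached 5 FPKM. These are descriptions of shared libraries and carry no test. Values over all 12 libraries are given beside them, since many nearest genes depended on leaving those replicates out. *Ccl9* was closest to *Igf1*, a growth factor gene of macrophages, with r of 0.988 over 10 libraries and 0.994 over 12, and then to *Eif6*, with 0.987 and -0.09. *Ccl4* was closest to *Ndufa8* (0.985 and 0.961) and *Sap18b* (0.979 and 0.945). *Ccl2* was closest to *Plpp2* (0.981 and 0.03) and *Hmox1*, the haem oxygenase gene (0.976 and 0.936). So of these 3 members' nearest genes, *Igf1*, *Ndufa8*, *Sap18b* and *Hmox1* had a like profile with cell media replicates 1 and 2 included, and *Eif6* and *Plpp2* did not. *Il1rn* was closest to *Gm3375* (0.983 and -0.57) and *Cdc37* (0.977 and 0.13), and *Nfkbia* to *Gm10093* (0.957 and -0.11) and *Cnot10* (0.943 and -0.32). For *Tnfaip3* the nearest were *Prpf4b* (0.977 and 0.663) and *Ganab* (0.953 and 0.631), and for *Cxcl2* *Casp4* (0.962 and 0.723) and *Rbm18* (0.949 and 0.314). Neither the genes nearest to *Il1rn* nor those nearest to *Nfkbia* stayed alike over 12 libraries. *Ccl6* was nearest to *Ubald2* (0.940 and 0.887) and *Pmp22* (0.921 and 0.302), *Tnf* to *Taf3* (0.936 and 0.466) and *Kif20b* (0.929 and 0.511), and *Ccl3* to *Pnrc1* (0.899 and 0.583) and *Mapk3* (0.895 and 0.851). Without the 2 libraries furthest from the member's median, r over the other 8 was 0.732 for *Ccl3* and *Mapk3* and at least 0.817 for the other pairs. No member was among the 2 nearest genes of another, but *Il1rn* and *Tnfaip3*, with means below 5 FPKM, could not be listed. Between members, r over the 10 libraries ran from -0.848 (*Cxcl2* and *Nfkbia*) to 0.937 (*Ccl9* and *Il1rn*). It was 0.927 for *Ccl2* and *Ccl9*.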

How the data were processed

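The authors deposited a table of FPKM values for 28977 gene IDs in 12 libraries. The submitters' processing notes name the tools HISAT2 and featureCounts and the mouse build GRCm39; versions and strand settings are not given in the sources used here. A batch by sequencing instrument was not tested, since 2 instruments are named and no library is tied to either. Symbols and exon lengths came from GENCODE M21, matched by gene ID (28302 IDs), promoters from RefSeq; both are GRCm38 and served for names, lengths and sequences only.

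The scale of analysis was log2(FPKM + 1). Genes with at least 1 FPKM in at least 3 libraries were kept (12026) and fitted with limma 3.58.1 (R 4.3.3): 1 mean per group, all 12 libraries, mean-variance trend, two-sided tests, Benjamini-Hochberg adjustment over all kept genes, threshold 0.05. With 3 libraries against 3, a permutation of 1 value cannot give a p below 0.1. Read numbers were recovered from the FPKM steps and exon lengths (98.3% of values below 1 FPKM whole within 0.01) and used for depth and for an alternative with limma-voom. The fit was tested on simulated data.

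Members, lists and tests were chosen with earlier results of these data known. In each list, the genes named are the 3 with the smallest unadjusted p in any comparison among those with a mean of at least 5 FPKM; any other gene is said to be named after its values were seen or stands for a measured absence or a marker. For each member the closest profiles were ranked by Pearson's r. Alternatives are given in the closing section.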

Additional observations from a re-analysis of the deposited data

How the results depend on the processing

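The 40 log2 differences of members (10 genes, 4 comparisons) were recomputed under 25 alternatives, planned ones and 1 chosen after seeing the data, the removal of an exon length trend. Of 992 values (*Il1rn* and *Tnfaip3* have none at a mean of at least 5 FPKM), 938 kept direction and side of the threshold, 40 changed direction and 14 newly passed it, and 23 of the 40 differences never changed direction. Values that changed direction at 20 µM against HBSS were -0.0040 for *Ccl9* (median-of-ratios scaling), and -0.0047 for *Ccl3* and -0.016 for *Ccl4* (length trend removed). At 100 µM against HBSS they were -0.11 for *Ccl3* under both quantile normalization and length removal, and -0.016 for *Nfkbia* under the latter, and between the doses -0.0058 for *Ccl4* (quantile). For HBSS minus cell media, median-of-ratios scaling gave -0.059 for *Tnf*, quantile normalization 0.038 for *Ccl3*, 0.025 for *Ccl4* and 0.12 for *Cxcl2*, and length removal 0.0056 for *Nfkbia* and -0.067 for *Tnfaip3*. Without cell media replicates 1 and 2, which moved the median of all genes by -0.12, it gave -0.13 for *Tnf*, 0.10 for *Ccl4* and 0.17 for *Nfkbia*. With the replicate block as well, these were -0.022, 0.16 and 0.23, and *Tnfaip3* was -0.065.

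Leaving out 1 library at a time gave ranges that crossed 0 at 20 µM for *Tnf* (-0.070 to 0.17), *Ccl2* (-0.021 to 0.12), *Ccl9* (-0.047 to 0.043) and *Cxcl2* (-0.14 to 0.46). At 100 µM against HBSS they did for *Ccl3* (-0.022 to 0.11), *Cxcl2* (-0.47 to 0.13) and *Nfkbia* (-0.027 to 0.14), and between the doses for *Ccl6* (-0.0013 to 0.20). For HBSS minus cell media they did for *Tnf* (-0.18 to 0.21), *Cxcl2* (-0.51 to 0.088) and *Nfkbia* (-0.30 to 0.041). The cause was not tested.

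Genes called over the whole table, 0, 0, 0 and 2 in the 4 comparisons as ordered in the report's interval plot, became 6, 1, 11 and 5 with no filter. At 100 µM against HBSS the count was 2 with the 2 groups alone, 29 without cell media replicates 1 and 2, and 0 to 5 over left-out libraries (5 without cell media replicate 3, 1 without HBSS replicate 3). Between the doses it was 1 with the 2 groups alone and 0 to 1 over left-out libraries. For HBSS minus cell media it was 1 at a pseudocount of 0.5 and at a mean of at least 5 FPKM, 4 under quantile normalization and limma-voom, 5 without the mean-variance trend and 19 with length removed. It was 0 with the 2 groups alone and without cell media replicates 1 and 2, and 0 to 7852 over left-out libraries, with 0 to 6 members.

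Replicate numbers are shared between groups. Deviations of same-numbered libraries correlated at -0.062 to 0.35 (20 µM and HBSS) and -0.025 to 0.26 (100 µM and HBSS). They correlated at 0.055 to 0.41 between the doses and at -0.026 to 0.35 between HBSS and cell media. In none of these did every library correlate best with its own number. Between the doses all did except 20 µM replicate 2, at 0.055 with its own number and 0.079 with 100 µM replicate 1. Whether a number marks a shared batch was not settled by these values. The replicate block gave 0, 0, 0 and 193 called genes and 0 members. In the 10 libraries without cell media replicates 1 and 2 it gave 2979 genes and 6 members at 100 µM against HBSS, 2088 genes and 2 members (*Tnf*, *Ccl9*) between the doses, and 0 for HBSS minus cell media. Depth limits *Tnfaip3*, *Il1rn* and *Ccl6* most, at 185, 213 and 215 reads in their weakest library.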

Other observations

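*Dusp1*, which encodes a phosphatase of the p38 and JNK kinases, was examined after its values were seen. It read 85.6, 23.5 and 27.4 FPKM in the HBSS libraries, so that replicate 1 was the highest of the 12 libraries, as it was for *Cxcl2* (281 FPKM). *Dusp1* read 37.2, 38.7 and 46.9 at 20 µM and 32.5, 52.0 and 50.0 at 100 µM. *Tnf* was lowest of its HBSS group in the same replicate, at 111 FPKM. Whether HBSS replicate 1 was handled or timed differently is not given in the sources used here.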
